A study of Sus scrofa with 13 samples.

Results

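Mitochondria make most of a cell's ATP with a chain of protein complexes in their inner membrane. Complex I takes electrons from NADH, complex III passes them to cytochrome c, complex IV hands them to oxygen, and complex V, the ATP synthase, uses the resulting proton gradient to make ATP. Most subunits are encoded in the nucleus, while 13 are encoded by mitochondrial DNA, and the early mammalian embryo lives on mitochondria inherited from the egg before it builds up respiration towards the blastocyst. The genes described here are the nuclear subunit genes of these complexes in pig (Sus scrofa) embryos. They were taken by symbol from the deposited gene table: symbols that begin with NDUFA, NDUFB, NDUFC, NDUFS or NDUFV and a digit, with UQCR, with COX4 to COX8 and a letter A to C, or with ATP5, plus CYC1, leaving out the NDUFAF assembly factors. The rule found 65 of 28232 genes: 39 of complex I, 2 of complex III, 7 of complex IV and 17 of complex V.

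RNA was sequenced from pools of embryos in 5 groups: IVF 4-cell embryos (3 libraries), IVF blastocysts (3), in vivo blastocysts (2), IVF hatched blastocysts (3) and in vivo hatched blastocysts (2). The blastocyst is the stage at which an outer layer, the trophectoderm, encloses a cavity and an inner cell mass, and hatching is its escape from the zona pellucida. In vitro fertilisation (IVF) embryos were fertilised and grown in culture, and in vivo embryos developed in the animal; no strain, age, treatment or culture medium is named in the sources used here. One in vivo hatched count column carries no number and is called the unnumbered library; its FPKM and TPM were not used, so length-scaled values of in vivo hatched blastocysts come from library 2 alone. How many embryos, animals, fertilisation rounds or days stand behind a library was not given either, so the spread that p-values rest on is that between libraries and may be technical, and origin cannot be told apart from any batch that goes with it. Levels are CPM, counts scaled to library size with TMM factors, with the SD between libraries after ±. For a log2 fold change, ± is its standard error. The sums of stage and cell type markers in the next paragraph use library size alone, without TMM factors. A gene was called when its adjusted p, from edgeR's quasi-likelihood test with Benjamini-Hochberg adjustment over all genes tested, was under 0.05.

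Libraries held 33259311 to 39273867 counts, and 14221 to 16735 genes had a count. The labelled stages matched their markers: 8 egg and early cleavage genes summed to at most 18.8 CPM at later stages and to 15779 to 22084 CPM at the 4-cell stage, and 6 trophectoderm genes to 19621 to 37161 CPM later and 94.7 to 783 CPM at the 4-cell stage. Of the other lists, 4 rows of pluripotency genes summed to 342 to 1378 CPM over all libraries. These rows summed to 342 to 543 CPM in in vivo hatched blastocysts and 716 to 784 CPM in in vivo blastocysts. The lists for oviduct and uterus, stroma and vessel, blood, cumulus and sperm stayed at or below 74.9 CPM. The 5 muscle genes summed to 33.0 to 344 CPM in IVF blastocysts and hatched blastocysts and 4.50 to 5.71 CPM in 4-cell embryos. In vivo, they summed to 168 to 193 CPM in blastocysts and 0.428 to 1.77 CPM in hatched blastocysts. In vivo hatched libraries held 207 to 655 CPM of 6 hypoblast genes, against 112 to 186 CPM in in vivo blastocysts. The same sum was 127 to 204 CPM in IVF hatched blastocysts, 174 to 209 CPM in IVF blastocysts and 180 to 283 CPM in 4-cell embryos. The lower in vivo hatched library thus lay within the range of the 4-cell libraries. In RNA from whole pools, fewer cells of a type and less RNA per cell cannot be told apart.

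Complex I was represented by 7 nuclear core subunits, 29 accessory subunits, NDUFA4, its relative NDUFA4L2 and an NDUFA4 pseudogene with 1 count in all. Core subunits such as NDUFS1, NDUFS7 and NDUFV1 carry the flavin or iron-sulphur clusters. NDUFA4 is nowadays counted with complex IV despite its name. Complex III was represented only by UQCRB and UQCR10. The complex V genes were 5 of the catalytic F1 part, 3 of the c ring, 7 of the stalks and membrane part, and ATP5S and ATP5SL, which carry the name but are not structural subunits. The genes lay on 18 chromosomes, 11 of them on chromosome 2, where NDUFS8 and NDUFV1 were neighbours 91.1 kb apart and NDUFS7 and ATP5D 129 kb apart; NDUFA1 and NDUFB11 were X-linked. A further 25 rows carry a subunit's or inhibitor's full name without a matching symbol, most of complexes III and IV, and are described apart.

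The main difference among these messages was by stage. Together the 65 genes took 0.236% ± 0.0491 of all counts in IVF 4-cell embryos, 2.66% ± 0.152 in IVF blastocysts and 3.06% ± 0.279 in IVF hatched blastocysts (n = 3 each). In vivo hatched blastocysts stood at 2.65% ± 0.711 and in vivo blastocysts at 2.59% ± 0.338 (n = 2 each). As summed CPM, the IVF blastocysts held 27409, 26525 and 29731 and the 4-cell libraries 2100.3, 1730.1 and 1952, so the groups lay far apart. Of the 65 group means of the 4-cell stage, 61 were the lowest among the 5 groups, the NDUFA4 pseudogene among them only by a tie at 0. Members averaging at least 100 CPM numbered 40 in IVF hatched, 36 in in vivo hatched, 39 in IVF and 37 in in vivo blastocysts, against 3 in 4-cell embryos.

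**Figure D1:**
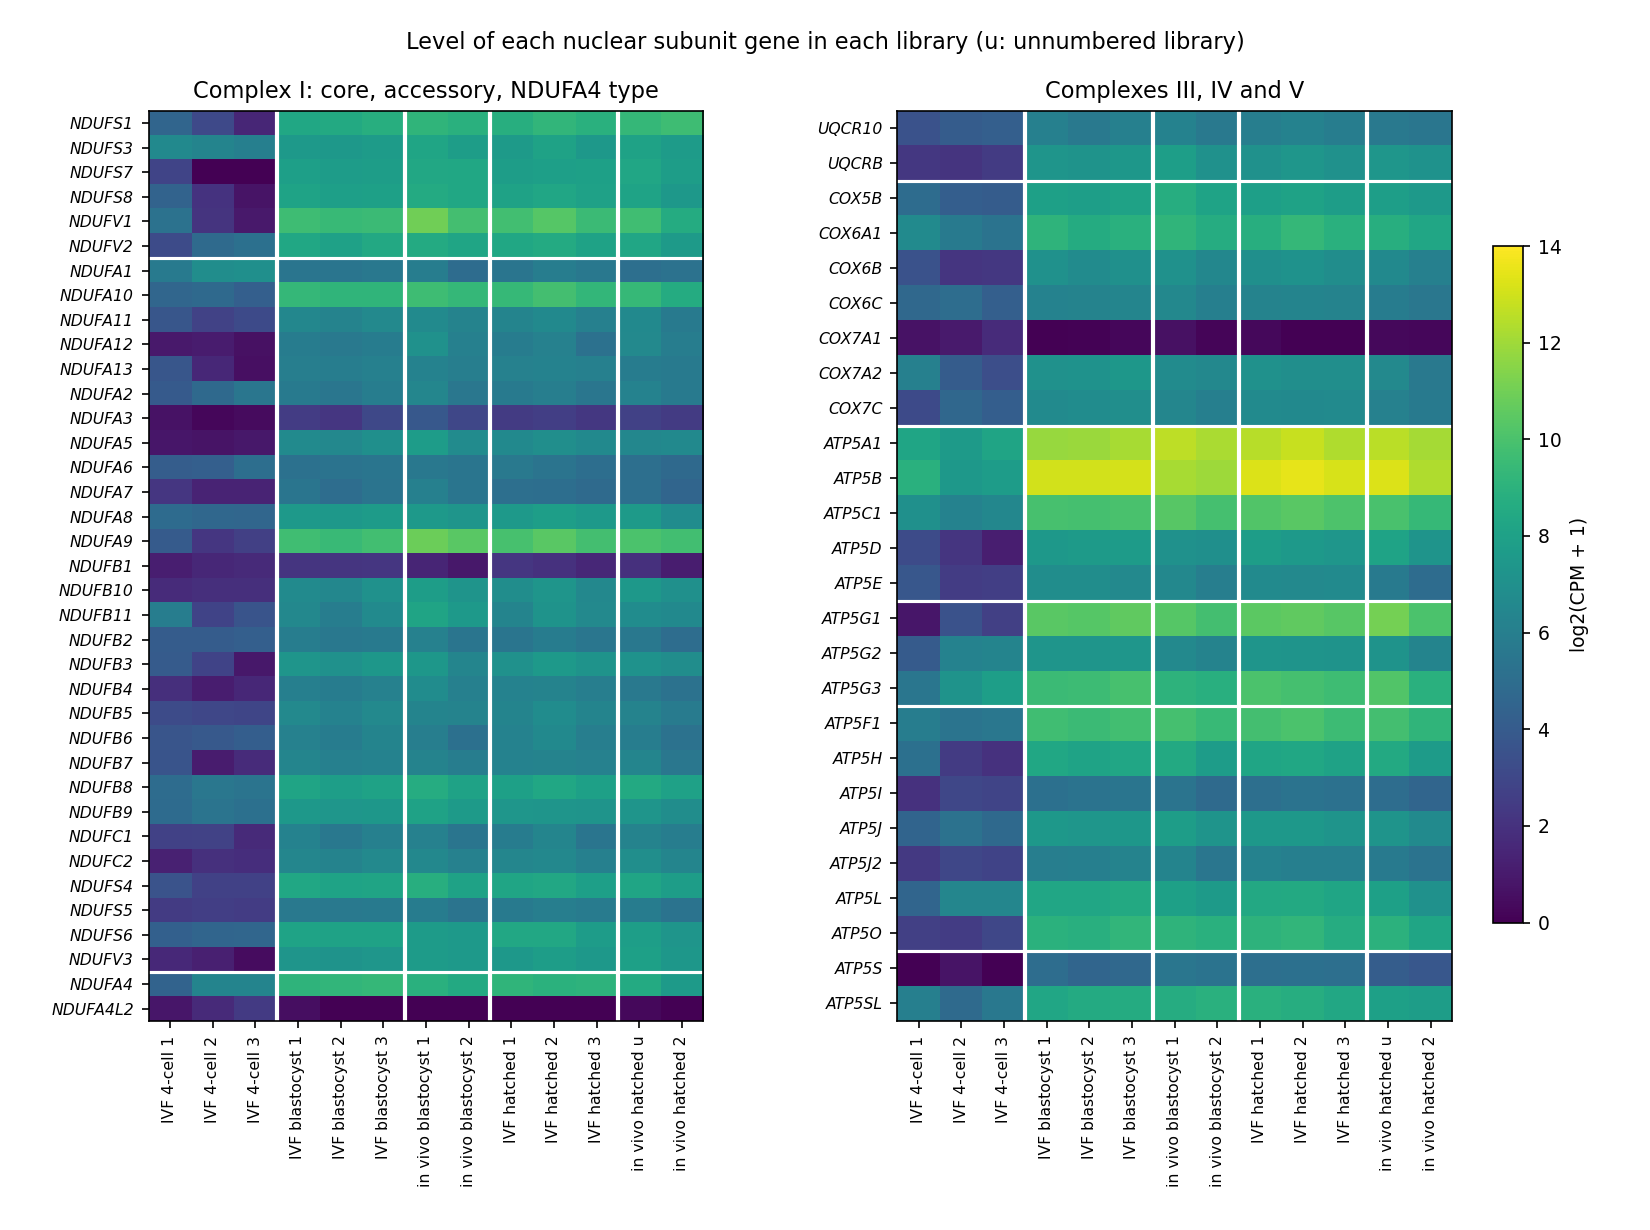
Heat map of log2(CPM + 1) for 63 members (rows, in blocks by complex and role) in the 13 libraries (columns, in blocks by group). The 3 columns of 4-cell embryos are the darkest (lowest) in nearly every row. NDUFA1, NDUFA4L2 and COX7A1 are the rows with their highest group mean at that stage.

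By complex, complex I summed to 666 ± 25.8 CPM in 4-cell embryos, 7678 ± 481 CPM in IVF blastocysts and 8861 ± 1657 CPM in IVF hatched blastocysts. Complex V (17 genes) summed to 1077 ± 160.0, 18809 ± 1217 and 22993 ± 2835 CPM over the same stages. Complex IV (7 genes) summed to 166 ± 72.8, 1183 ± 108 and 1195 ± 133 CPM, and the 2 complex III genes to 18.5 ± 3.96, 219 ± 20.5 and 207 ± 23.1 CPM. These sums depend on how many genes the symbol rule takes for each complex and do not compare the complexes with each other.

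**Figure D2:**
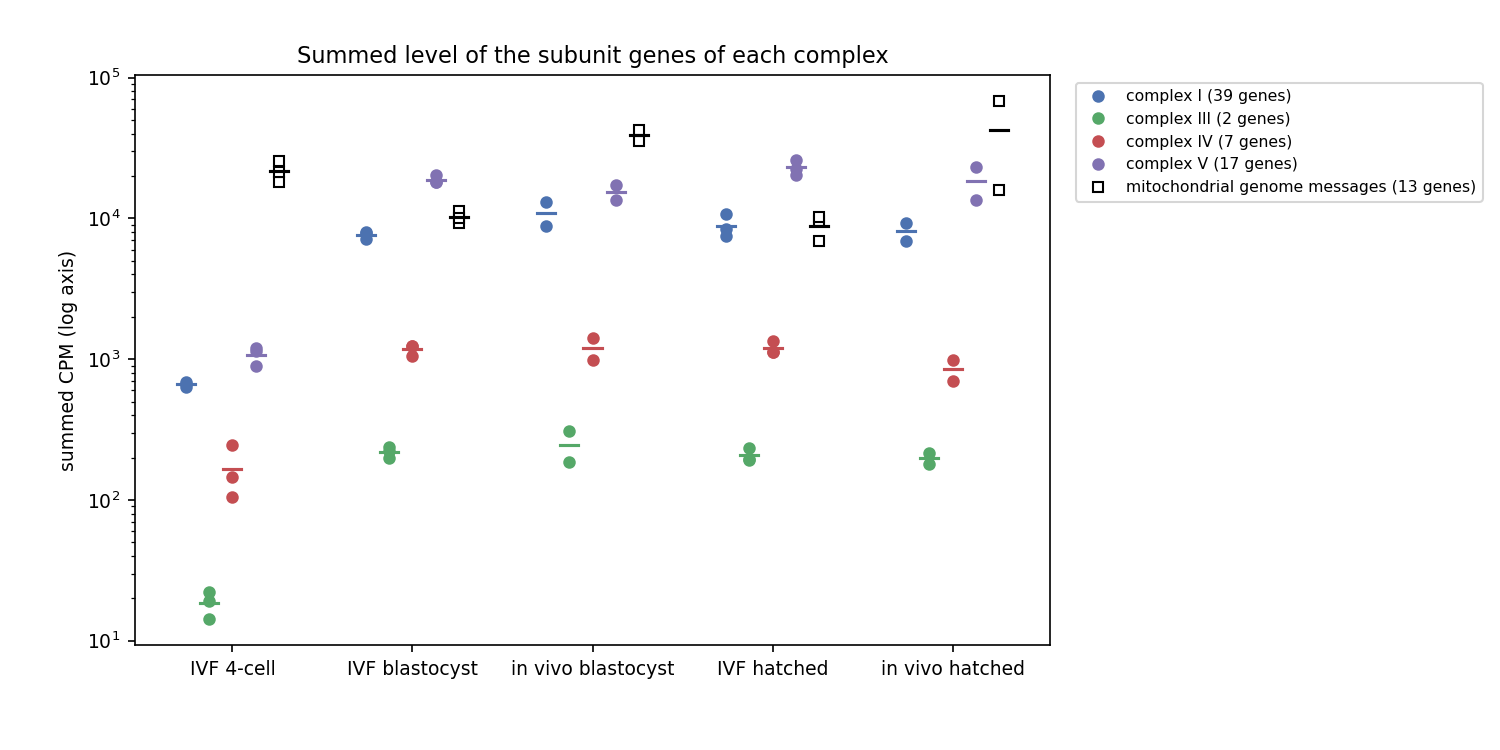
Summed CPM on a log axis for the members of each complex and for the 13 protein-coding messages of mitochondrial DNA (squares), 1 point per library, with a bar at each group's mean. All 4 complexes are lowest in the 3 libraries of 4-cell embryos, while the mitochondrial messages are lowest in IVF hatched blastocysts and highest in 1 in vivo hatched library.

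In IVF blastocysts against IVF 4-cell embryos, 57 of the 64 members tested rose and NDUFA1 fell; over all 16312 genes tested, 25.7% rose and 30.6% fell, 56.3% in all. The median log2 fold change was 3.58 over the members and -0.23 over all genes. CPM ranges of the groups were apart for 62 of 64 members and for 66.2% of all genes. With library size alone in place of TMM factors the all-gene median moved to -0.50 and the members' median to 3.28. Complex V rose throughout, 17 of 17 genes with a median of 3.76. All 7 nuclear core subunits of complex I rose, with a median of 4.88, as did 24 of its 29 accessory subunits, with a median of 3.61. Both complex III genes and 6 of 7 complex IV genes rose.

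**Figure D3:**
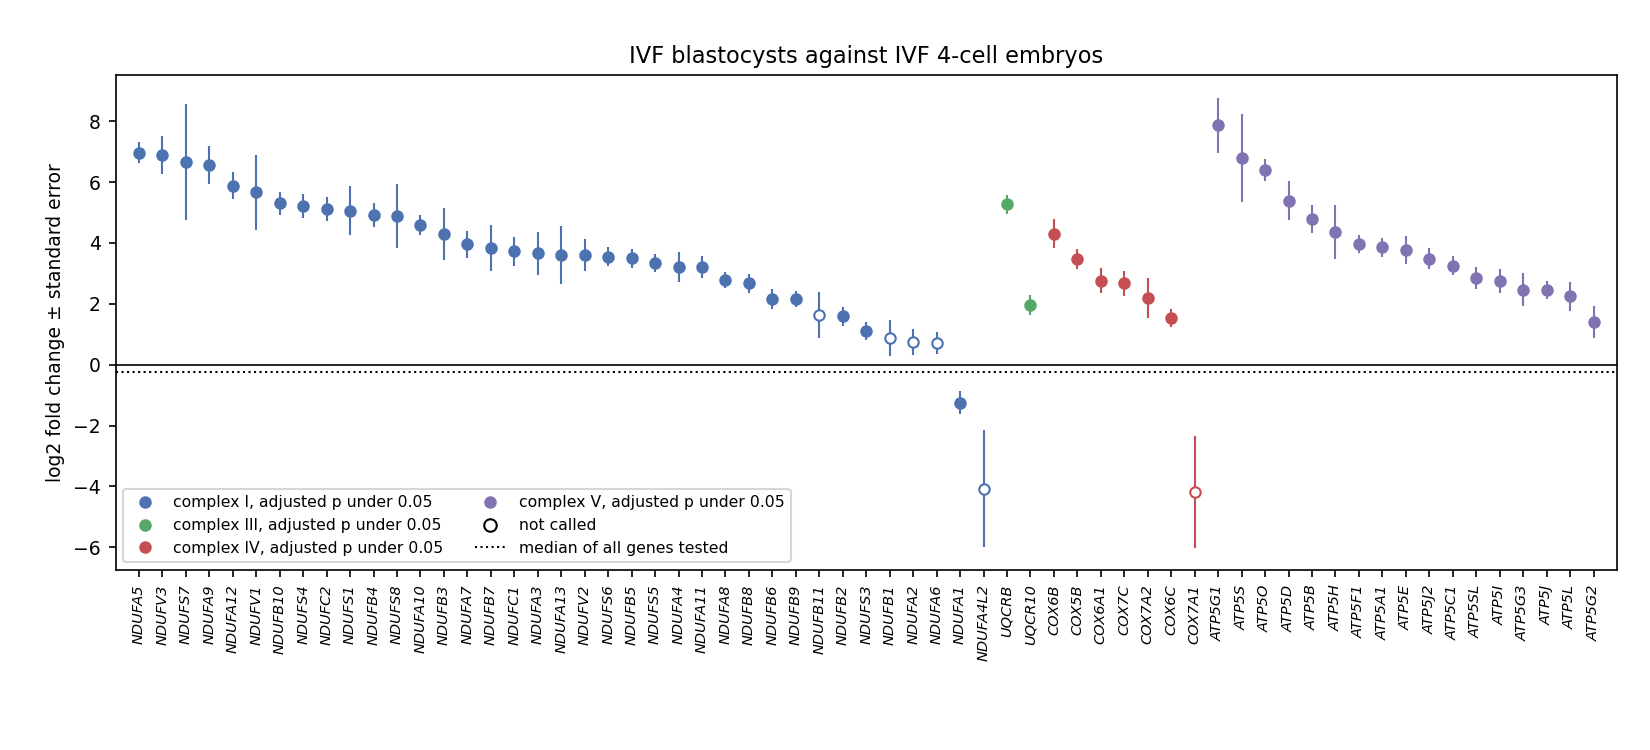
Log2 fold change of 63 members in IVF blastocysts over IVF 4-cell embryos (points, with standard error bars), by complex; filled points were called and the dotted line marks the median of all genes tested, -0.23. Only NDUFA1, NDUFA4L2 and COX7A1 lie below 0, and ATP5G1 is the highest at 7.86.

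The accessory subunit NDUFA5, part of the matrix arm of complex I (chromosome 18, 23881872 to 23896699 on Sscrofa11.1), had 102, 93.1 and 123 CPM in IVF blastocysts and 0.807, 0.689 and 0.878 CPM in 4-cell embryos. Its 4-cell libraries agree closely and the groups lie more than 100 CPM apart on average, a log2 fold change of 6.96 ± 0.35 (adjusted p = 1.65e-05). NDUFB10, in the membrane arm, rose by 5.30 ± 0.36 on the log2 scale (adjusted p = 2.41e-05), and NDUFA10 by 4.60 ± 0.32 (adjusted p = 2.43e-05). NDUFA9 and NDUFV3 rose more, by 6.55 ± 0.63 and 6.88 ± 0.63, with wider errors. The core subunits ranged widely: NDUFS3 rose by 1.11 ± 0.28, the smallest, and NDUFS7, which carries an iron-sulphur cluster next to the quinone site, by 6.66 ± 1.90, the largest.

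NDUFS7 had 237, 216 and 222 CPM in IVF blastocysts and 6.31, 0 and 0 CPM in 4-cell embryos. Its whole 4-cell level therefore came from library 1. NDUFV1, the NADH-binding subunit, showed 791, 701 and 732 CPM in IVF blastocysts and 37.2, 3.30 and 0.906 CPM in 4-cell embryos, again with library 1 the highest. That library stood apart for many members: it lay above both other 4-cell libraries for 30 of 65 and below both for 26, by more than 4 times upwards for 10 members and downwards for 4. Without library 1, 59 members were called in blastocysts and 60 in hatched blastocysts against 4-cell embryos, and the part of that library in the size of single folds was not tested further.

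Complex III's UQCRB, which lines the quinone-binding pocket, had 154, 147 and 170.0 CPM in IVF blastocysts and 3.76, 3.22 and 4.39 CPM in 4-cell embryos. The rise was 5.27 ± 0.31 on the log2 scale (adjusted p = 1.65e-05), with libraries of each group close together. UQCR10, a small membrane subunit, rose by 1.96 ± 0.33 (adjusted p = 0.00128). In complex IV, COX6B, a subunit facing the space between the membranes, rose by 4.30 ± 0.48 (adjusted p = 0.000181), COX5B, a zinc-binding matrix subunit, by 3.47 ± 0.33 (adjusted p = 8.70e-05), and COX6A1, the non-muscle form of its subunit, by 2.76 ± 0.41 (adjusted p = 0.000669).

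ATP synthase subunits rose in every role. The 5 F1 genes had a median of 3.85, led by ATP5D at 5.39 ± 0.65, and the 7 stalk and membrane genes a median of 3.49. ATP5O, the subunit that ties the outer stalk to F1, had 491, 458 and 587 CPM in IVF blastocysts and 5.27, 4.63 and 6.94 CPM in 4-cell embryos, a rise of 6.41 ± 0.36 (adjusted p = 1.65e-05). Neither group's libraries came near the other's. ATP5F1, the b subunit of the outer stalk, rose by 3.96 ± 0.30 (adjusted p = 3.28e-05), and ATP5A1, the alpha subunit, by 3.85 ± 0.32 (adjusted p = 4.63e-05). Outside the structural subunits, ATP5S rose by 6.78 ± 1.45 and had 0, 0.665 and 0 CPM at the 4-cell stage.

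The 6 members not called in blastocysts against 4-cell embryos were NDUFA2, NDUFA6, NDUFB1, NDUFB11, NDUFA4L2 and COX7A1. NDUFA2 averaged 52.2 ± 7.88 CPM in IVF blastocysts and 28.8 ± 14.8 CPM in 4-cell embryos, with overlapping ranges. NDUFB11 had 92.9, 60.3 and 103 CPM in IVF blastocysts and 60.6, 5.93 and 11.6 CPM in 4-cell embryos; library 1 of the 4-cell embryos reached the lowest blastocyst (log2 fold change 1.63 ± 0.75, adjusted p = 0.0935). NDUFB1 lay at 3.41 to 3.67 CPM in IVF blastocysts and 1.23 to 2.15 CPM in 4-cell embryos, low at both stages.

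NDUFA1, an X-linked subunit that complex I needs for assembly of its membrane arm (chromosome X, 98219717 to 98223873), was the only one to fall at both later IVF stages among members detected in all libraries. It had 43.1, 42.4 and 47.6 CPM in IVF blastocysts and 51.3, 116 and 127 CPM in 4-cell embryos, so 4-cell library 1 lay close to the blastocysts and the others well above. The log2 fold change was -1.25 ± 0.38 (adjusted p = 0.0212), and -1.07 ± 0.38 in hatched blastocysts (adjusted p = 0.0382). The call was lost with some single library left out in both comparisons: for 5 of 9 libraries in blastocysts and 8 of 9 in hatched blastocysts. NDUFA4L2, known from other mammals as a hypoxia-induced relative of NDUFA4, had 0 counts in all 3 IVF hatched libraries and 0.828, 2.19 and 4.27 CPM in 4-cell embryos. Against a floor of 3 counts per library, on the same CPM scale, it was at least 27.5-fold lower there (adjusted p = 0.0187; lost with 3 of 9 libraries left out), while 1 IVF blastocyst library held 0.453 CPM and the others 0.

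IVF hatched blastocysts against the same 4-cell libraries gave 56 members higher and 2 lower of 64, beside 25.7% and 30.9% of all genes, 56.6% in all. The median was 3.60, against -0.24 over all genes, and ranges were apart for 60 members and 66.9% of all genes. Because both comparisons rest on the same 4-cell libraries, their values are set side by side only: NDUFA5 6.95 in hatched blastocysts and 6.96 in blastocysts, UQCRB 5.13 and 5.27, COX5B 3.41 and 3.47, ATP5O 6.42 and 6.41, ATP5A1 4.45 and 3.85. ATP5G2 was called in blastocysts (1.40 ± 0.53, adjusted p = 0.0482) but not in hatched blastocysts (1.31 ± 0.53, adjusted p = 0.0594).

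Within complex V, the 3 c-ring genes differed in how their levels moved. ATP5G1 (chromosome 12), ATP5G2 (chromosome 5) and ATP5G3 (chromosome 15) encode the same mature c subunit behind different import sequences. ATP5G1 had 1356, 1256 and 1534 CPM in IVF blastocysts and 0.807, 10.5 and 5.18 CPM in 4-cell embryos, the largest fold change of any member at 7.86 ± 0.92 (adjusted p = 0.000224). ATP5G3 had 753, 775 and 981 CPM in IVF blastocysts and 44.7, 146 and 231 CPM in 4-cell embryos, a rise of 2.46 ± 0.54 (adjusted p = 0.00449). ATP5G2 had 159.6, 156 and 163 CPM in IVF blastocysts and 15.3, 72.9 and 79.7 CPM in 4-cell embryos, and its call was lost with 6 of 9 libraries left out. In all 3 genes the ranges were apart, and 4-cell library 1 was the lowest.

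Per length, from the deposited FPKM, ATP5G1 supplied 63.3%, 61.1% and 60.8% of the c-ring message in IVF blastocysts and 1.65%, 6.90% and 1.91% in 4-cell embryos. ATP5G3 supplied 33.1% ± 1.65 in IVF blastocysts and 88.5% ± 3.17 in 4-cell embryos. The ATP5G1 share differed by 58.3 percentage points (two-sided exact permutation test p = 0.1, the smallest that 3 against 3 libraries allow). In the 9 blastocyst and hatched libraries with FPKM in use, of either origin, ATP5G1 shares ranged over 57.4% to 70.0%. IVF and in vivo blastocysts averaged 61.7% ± 1.39 and 67.9% ± 3.04, with an exact permutation p of 0.2, the smallest that this design allows. A separate row named as a c-subunit copy without an ATP5G symbol stayed at or below 1.41 CPM; how reads shared between such copies were split is not given in the sources used here.

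**Figure D4:**
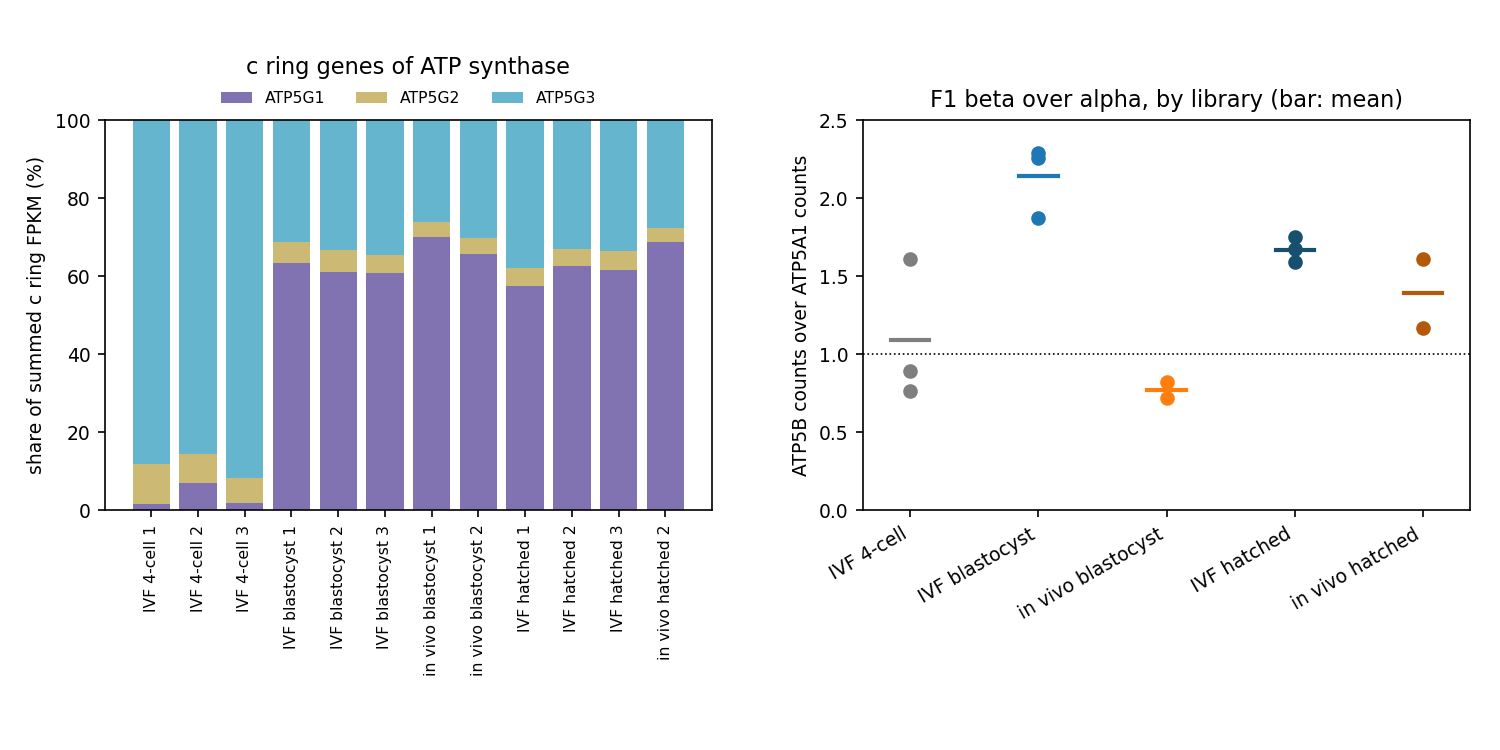
Left, the share of summed c-ring FPKM from ATP5G1, ATP5G2 and ATP5G3 in each library with FPKM in use (12, stacked to 100%). Right, the ratio of ATP5B to ATP5A1 counts in each library with a bar at each group's mean and a dotted line at 1; only in vivo blastocysts and 2 of the 4-cell libraries lie below it.

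Per length, the highest member put under complex I by its symbol was NDUFA4, over the 12 libraries. It had 135 ± 68.7 FPKM in 4-cell embryos, 1143 ± 66.8 in IVF blastocysts and 997 ± 104 in IVF hatched blastocysts. Since NDUFA4 is nowadays counted with complex IV, the next member, NDUFA9, is given too. Their means over libraries were 732 FPKM for NDUFA4 and 565 FPKM for NDUFA9. For complex III the highest was UQCRB, at 8.39 ± 1.16, 282 ± 20.7 and 247 ± 18.6 FPKM over the same stages. UQCR10 was higher in 4-cell embryos (39.6 ± 5.86 FPKM). Among the COX symbols of complex IV the highest was COX6A1, at 146 ± 95.5, 796 ± 136 and 856 ± 137 FPKM. Its mean over libraries, 629 FPKM, lay below that of NDUFA4. ATP5B, the catalytic beta subunit (chromosome 5, 21984750 to 21992393), had the highest mean in complex V, with 194 ± 135, 4300.3 ± 88.1 and 4945 ± 342 FPKM. It was not the highest in every group: in 4-cell embryos ATP5G3 averaged 225 ± 128 FPKM, and in in vivo blastocysts ATP5A1 averaged 2765 ± 295 FPKM and ATP5B 2095 ± 33.4 FPKM. Deposited TPM gave the same highest member by mean over libraries in each complex. Within a group the highest complex V member stood 8.67 to 17.5 times above the median member of that complex, in FPKM.

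The alpha and beta subunits sit in equal numbers in the F1 head, and their messages are given here side by side, a pair chosen after its values were seen. ATP5B over ATP5A1, as a ratio of counts, was 1.67, 1.59 and 1.75 in IVF hatched blastocysts and 1.61 and 1.17 in in vivo hatched blastocysts. It was 2.29, 2.26 and 1.87 in IVF blastocysts and 0.719 and 0.818 in in vivo blastocysts. The IVF blastocysts therefore all lay above 1 and the in vivo blastocysts below. FPKM gave ratios of 1.86 to 2.26 in IVF blastocysts and 0.712 to 0.810 in in vivo blastocysts. Since the pair was picked from the values, no test is given.

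IVF against in vivo blastocysts asks what differs with origin at that stage. Of the 62 members tested, 2 were higher in IVF (ATP5B and ATP5G2) and 3 were lower (among them NDUFB11 and NDUFA9). Over all 15528 genes, 6.09% were higher and 4.74% lower, 10.8% in all, so the members' share of 5 in 62 is close to the background. Median log2 fold changes were -0.07 over the members and 0.05 over all genes, with -0.30 for complex I and 0.13 for complex V. The sign of the members' median turned with single libraries: it was 0.23 without in vivo library 1, 0.01 without IVF library 2 and -0.28 without in vivo library 2. Ranges were apart for 28 of 62 members and for 44.3% of all genes. An unadjusted p under 0.05 was reached by 18 of 62 members and by 27.4% of all genes.

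ATP5B had 8333, 8481 and 8727 CPM in IVF blastocysts and 4525 and 3939 CPM in in vivo blastocysts, a rise of 1.00 ± 0.26 (adjusted p = 0.0321) with all IVF libraries higher. ATP5G2, with 159.6, 156 and 163 CPM in IVF blastocysts and 93.7 and 74.3 CPM in in vivo blastocysts, rose by 0.92 ± 0.25 (adjusted p = 0.0396). NDUFB11, an X-linked accessory subunit (chromosome X, 41770929 to 41773879), had 92.9, 60.3 and 103 CPM in IVF blastocysts and 294 and 180.1 CPM in in vivo blastocysts. It was lower in every IVF library (-1.48 ± 0.31, adjusted p = 0.0155). NDUFA9, an accessory subunit near the quinone site, had 835, 729 and 876 CPM in IVF blastocysts and 1886 and 1343 CPM in in vivo blastocysts and fell by 1.00 ± 0.24 on the log2 scale (adjusted p = 0.0229). The groups did not overlap for any of these 4. All 7 nuclear core subunits of complex I had a negative fold change, with a median of -0.49.

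These calls rest on few libraries. In vivo blastocyst library 1 lay above library 2 for 62 of 65 members, with a median ratio of 1.41. No member was called without in vivo library 1 or without IVF blastocyst library 2. NDUFB11 alone was called without IVF blastocyst library 1 or without library 3, the 3 lower members alone without IVF hatched library 1, and 6 members, all lower, without in vivo library 2. Summed complex I was 7678 ± 481 CPM in IVF blastocysts and 10998 ± 2985 CPM in in vivo blastocysts, and complex V 18809 ± 1217 and 15365 ± 2501 CPM. The ratio of summed complex V to complex I CPM, also chosen after its values were seen, was 2.30, 2.54 and 2.52 in IVF blastocysts and 1.31 and 1.53 in in vivo blastocysts. Without ATP5B the ratio was 1.24 to 1.43 in IVF and 0.962 to 1.09 in in vivo blastocysts, so the libraries stayed apart.

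**Figure D5:**
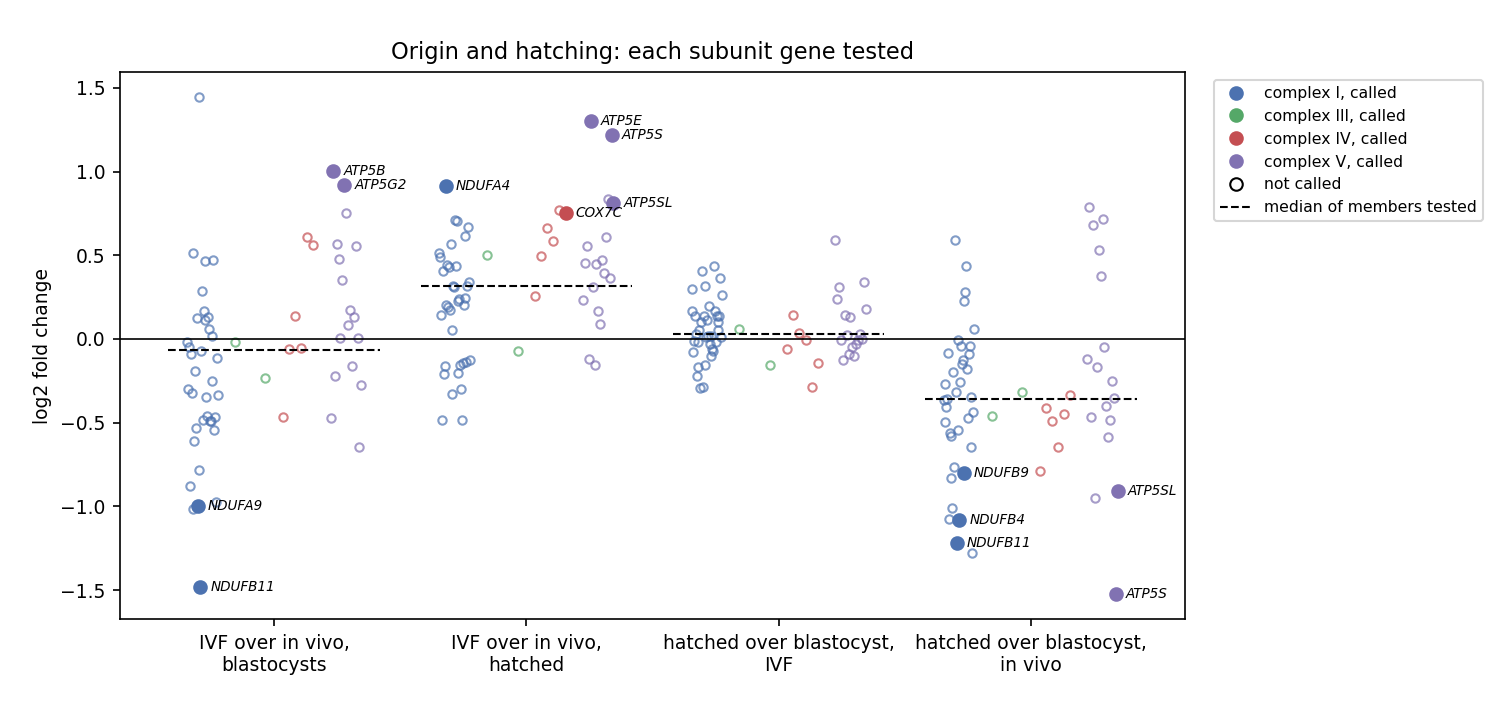
Log2 fold change of 61 of the 62 members tested (points) in each of 4 comparisons of origin or hatching; called members are labelled and the dashed line marks the median of all 62. Called members lie on both sides of 0 for blastocyst origin, above 0 for hatched origin and below 0 for hatching in vivo, and no member is called for hatching after IVF.

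In hatched blastocysts, IVF against in vivo, the called members were others than in blastocysts, but a test of whether the difference by origin itself changed with stage called ATP5S alone. Of 62, ATP5S, ATP5E, ATP5SL, NDUFA4 and COX7C were higher in IVF and none was lower, 5 of 62, where 6.96% of all genes were higher and 4.88% lower, 11.8% in all. Medians were 0.32 over the members and 0.04 over all genes; by complex they were 0.23 for I, 0.63 for IV and 0.45 for V. The members' median was 0.04 without in vivo hatched library 2, 0.20 without IVF hatched library 2 and 0.62 without the unnumbered library. Ranges were apart for 22 of 62 members and for 46.3% of all genes, and 15 members and 27.6% of all genes had an unadjusted p under 0.05. ATP5E, the epsilon subunit of the central stalk, had 103, 97.2 and 103 CPM in IVF hatched blastocysts, against 52.5 CPM in the unnumbered in vivo library and 30.2 CPM in library 2. All IVF libraries were higher (1.30 ± 0.28, adjusted p = 0.0130). NDUFA4 had 576, 497 and 527 CPM in IVF hatched blastocysts and 375 and 199 CPM in in vivo hatched blastocysts (0.91 ± 0.26, adjusted p = 0.0420). COX7C, a small complex IV subunit, had 104, 100.3 and 103 CPM in IVF hatched blastocysts and 70.3 and 52.6 CPM in in vivo ones (0.75 ± 0.22, adjusted p = 0.0453).

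The in vivo hatched libraries were far from each other: the unnumbered one lay above library 2 for 61 of 65 members, with a median ratio of 1.44. Without library 2 no member was called, and without the unnumbered library 13 were, all higher in IVF. With any 1 IVF library left out, 2 or 3 members were called. Beside this, the mitochondrial messages summed to 15949 CPM in the unnumbered library and 68251 CPM in library 2. The part of that difference in the members' values was not tested.

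In vivo hatched blastocysts were lower than in vivo blastocysts in 5 of 62 members: ATP5S, ATP5SL, NDUFB4, NDUFB9 and NDUFB11. None rose (ATP5B did with DESeq2, with library size alone and with no filter); of all genes 6.96% rose and 7.39% fell, 14.3% in all. The median was -0.36 over the members and -0.01 over all genes, and ranges were apart for 22 of 62 members and 53.4% of all genes. The members' median was -0.03 without in vivo blastocyst library 1, -0.12 without hatched library 2, -0.59 without blastocyst library 2 and -0.65 without the unnumbered hatched library. An unadjusted p under 0.05 was reached by 17 members and by 30.5% of all genes. The 3 complex I genes all encode accessory subunits of the membrane arm. NDUFB4 had 49.2 and 37.4 CPM in in vivo hatched blastocysts and 110.4 and 68.6 CPM in in vivo blastocysts (-1.08 ± 0.27, adjusted p = 0.0239). NDUFB9 had 156 and 115 CPM in in vivo hatched blastocysts and 263 and 198 CPM in in vivo blastocysts (-0.80 ± 0.23, adjusted p = 0.0365). NDUFB11 had 111 and 97.5 CPM in in vivo hatched blastocysts and 294 and 180.1 CPM in in vivo blastocysts (-1.22 ± 0.35, adjusted p = 0.0399). No hatched library reached the lower blastocyst library for these 3, whose blastocyst libraries are the same ones used for the comparison by origin.

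Single libraries decided most of these calls. Only ATP5S was called without in vivo blastocyst library 1, and 10 members, all lower, without blastocyst library 2 or without the unnumbered hatched library. Without hatched library 2, ATP5S fell and ATP5B, ATP5D, ATP5G1 and ATP5G3 rose. Without IVF blastocyst library 1, IVF blastocyst library 3 or IVF hatched library 3, which enter the shared spread, 3 were called. In the hatched in vivo libraries 4 of 6 hypoblast genes were higher than in in vivo blastocysts; whether cell make-up had a part in the members' values was not tested.

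No member was called on hatching after IVF. Of 62, 0 were called by edgeR and 0 by DESeq2, and 2 had an unadjusted p under 0.05, beside 3.83% of all genes: ATP5A1, with 5832, 7202 and 5251 CPM in IVF hatched blastocysts and 3646, 3757 and 4657 CPM in IVF blastocysts (0.59 ± 0.21), and NDUFS1, a core iron-sulphur subunit (0.43, unadjusted p = 0.0461). ATP5A1's groups did not overlap, its unadjusted p being 0.0149. Of all genes 0.0451% were called, each lower. The median was 0.03 over the members, or -0.01 with library size alone, and ranges were apart for 9 of 62 members and 10.7% of all genes.

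The difference between the hatching changes, IVF minus in vivo, was called for 1 of 62 members, ATP5S, where 2.79% of all genes were called as positive and 1.93% as negative, 4.71% in all. The members' median was 0.39 and that of all genes 0.00, and 54 of the 62 were positive, beside 49.8% of all genes. The median was 0.09 without in vivo blastocyst library 1, 0.14 without in vivo hatched library 2, 0.22 without IVF hatched library 2, 0.60 without in vivo blastocyst library 2 and 0.68 without the unnumbered library. ATP5S (chromosome 1, 180069157 to 180081332), also named factor B and known in cattle as a protein that couples the synthase's proton channel to ATP production, had 33.3, 34.8 and 33.5 CPM in IVF hatched blastocysts and 31.5, 22.4 and 25.9 CPM in IVF blastocysts. In vivo it had 16.7 and 12.7 CPM in hatched blastocysts and 43.4 and 39.4 CPM in blastocysts. The in vivo hatched libraries were the lowest of the 10 and the in vivo blastocysts the highest. Its log2 change on hatching was 0.34 ± 0.21 after IVF and -1.53 ± 0.27 in vivo, and the difference was 1.86 ± 0.34 (adjusted p = 0.0144). It was also higher in IVF at the hatched stage (1.22 ± 0.25, adjusted p = 0.0105), a comparison that shares its libraries.

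ATP5SL, known in human cells as a complex I assembly factor, had 472, 424 and 342 CPM in IVF hatched blastocysts and 250.4 and 224 CPM in in vivo hatched blastocysts (0.81 ± 0.21, adjusted p = 0.0275). In vivo blastocysts had 403 and 469 CPM, so it was lower after hatching in vivo (-0.91 ± 0.22, adjusted p = 0.0209), and no hatched in vivo library reached any other. The difference of hatching changes, 1.09 ± 0.29, missed the threshold (adjusted p = 0.0543). With all 13 libraries in 1 fit, where the 4-cell libraries add to the estimated spread, no member was called by origin or by hatching.

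At the blastocyst and hatched stages, tissue variants of complex IV were mostly in their general forms. In 4-cell embryos the full-name row of COX7B2 had 3.19, 6.47 and 7.44 CPM, beside 1.27, 8.71 and 6.26 CPM for that of COX7B. COX7A1, the heart and muscle form, had 0, 0.0542 and 0.174 CPM in IVF blastocysts and 0.616, 1.01 and 2.32 CPM in 4-cell embryos (-4.18 ± 1.83, adjusted p = 0.0778). COX7A2, the general form, had 137, 142 and 171 CPM in IVF blastocysts and 67.8, 15.9 and 9.43 CPM in 4-cell embryos, a rise of 2.19 ± 0.64 (adjusted p = 0.0174). COX6C, which has no tissue variant here, rose by 1.53 ± 0.29. Among rows identified by full name, the muscle form of COX6A lay at 8.10 to 18.1 CPM in IVF blastocysts and 3.47 to 9.92 CPM in 4-cell embryos, against 388 to 547 CPM and 39.4 to 103 CPM of COX6A1. The rows named COX4 isoform 2 and COX6B2 stayed at or below 0.425 and 1.33 CPM in every library.

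Rows with a subunit's full name but no matching symbol, collected with earlier results of these data known, filled in complex III. Of 24 such rows (leaving out the inhibitor), 17 were tested in blastocysts against 4-cell embryos. Of these, 11 rose and 1 fell, where 25.7% of all genes rose and 30.6% fell. The core proteins 1 and 2 of complex III rose by 6.09 ± 0.34 and 6.39 ± 1.33, the Rieske iron-sulphur protein by 4.82 ± 0.43, cytochrome c1 by 5.29 ± 0.37 and subunit 8 by 4.23 ± 0.37. Subunit 6 of complex III was not called (0.77 ± 0.40, adjusted p = 0.132). Cytochrome c1, which hands electrons to cytochrome c, had 2291, 1931 and 2288 CPM in IVF blastocysts and 39.0, 68.3 and 47.4 CPM in 4-cell embryos. In complex IV the rows named COX5A, COX4 isoform 1 and COX7B rose by 3.48 ± 0.27, 3.32 ± 0.74 and 3.62 ± 0.65. Of the 8 such complex IV rows tested, 3 rose, 1 fell and 4 were not called. Among those not called were COX8A (-0.44 ± 0.31, adjusted p = 0.262) and a COX7A-related row (0.26 ± 0.50, adjusted p = 0.680). COX7B2, a testis-enriched form in other mammals, fell (-3.67 ± 0.77), with 0.426, 0.325 and 0.694 CPM in IVF blastocysts and 3.19, 6.47 and 7.44 CPM in 4-cell embryos.

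ATPIF1, which stops the synthase from running backwards, had 316, 219.8 and 276 CPM in IVF blastocysts and 2.51, 3.42 and 4.42 CPM in 4-cell embryos. The rise of 6.19 ± 0.39 (adjusted p = 1.80e-05) lay above the members' median of 3.58. By origin, 0 of the 17 full-name rows tested were called in blastocysts, beside 10.8% of all genes. In hatched blastocysts 2 of 17 were higher in IVF and 0 lower, beside 6.96% and 4.88% of all genes. They were COX7B (1.03 ± 0.31, adjusted p = 0.0494) and COX8A (0.79 ± 0.21, adjusted p = 0.0309). On hatching in vivo 0 of 17 rose and 2 fell, beside 6.96% and 7.39% of all genes. They were COX5A (-0.87 ± 0.26, adjusted p = 0.0431) and a COX7A-related row (-0.97 ± 0.25, adjusted p = 0.0258).

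Other genes of respiration were counted by list, for IVF blastocysts against 4-cell embryos, where 25.7% of all genes rose and 30.6% fell. All 6 matched respiratory genes outside the symbol rule rose: the acyl carrier NDUFAB1 by 7.45 ± 0.68, cytochrome c (CYCS) by 3.86 ± 0.47, and the complex II genes SDHA, SDHB, SDHC and SDHD by 1.89, 1.59, 3.73 and 6.64. Complex I assembly factors rose in 11 of 15, among them ACAD9 (5.61 ± 1.41) and NDUFAF3 (3.93 ± 0.59). For complex III assembly 1 of 3 matched rose (BCS1L, 4.26 ± 0.41). For complex IV assembly 5 of 11 rose, with HIGD1A at 3.70 ± 0.62, and 2 fell (CMC1 and HIGD2A, -1.31 ± 0.47 and -1.08 ± 0.41). The ATP synthase assembly factors ATPAF1 and ATPAF2 rose by 3.19 ± 0.36 and 2.11 ± 0.57, and TMEM242 fell (-2.66 ± 0.51).

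Of 14 regulators of mitochondrial genes, 2 rose and 4 fell, beside the same 25.7% and 30.6% of all genes. The nuclear receptor ESRRA (5.03 ± 0.82) and the mitochondrial rRNA methyltransferase TFB1M (0.91 ± 0.33) rose. NRF1, a factor known to bind promoters of many subunit genes, fell (-3.19 ± 0.46), as did PPRC1, ESRRG and GABPB1 (-3.08, -2.10 and -2.07). By origin in blastocysts, 4 of the 14 regulators were lower in IVF and 1 higher, beside 4.74% and 6.09% of all genes. The lower ones were TFAM, POLRMT, ESRRB and PPARGC1B (-0.90, -0.85, -1.06 and -1.47). The higher one was PPARGC1A, at 2.01 CPM in IVF blastocysts and 0 counts in both in vivo blastocyst libraries. SDHA and SDHB, 2 of the 6 respiratory genes outside the symbol rule, were also lower in IVF (-0.95 and -0.99). In hatched blastocysts 2 of the 14 regulators, NRF1 and POLRMT, were lower in IVF (-1.21 and -0.97), beside 4.88% of all genes. These calls rest on the same few libraries as those of the members.

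The 13 protein messages of mitochondrial DNA, whose products join the same complexes, moved otherwise. They summed to 21713 ± 3763 CPM in 4-cell embryos, 10184 ± 981 CPM in IVF blastocysts and 8869 ± 1736 CPM in IVF hatched blastocysts. Of the 13, 7 fell and none rose in IVF blastocysts against 4-cell embryos, and 11 fell in IVF hatched blastocysts, beside 30.6% and 30.9% of all genes. The nuclear members held 0.116, 0.0676 and 0.0911 counts per mitochondrial count in 4-cell embryos, 2.44, 2.86 and 2.95 in IVF blastocysts and 3.38, 5.55 and 2.87 in IVF hatched blastocysts. Every later IVF library thus exceeded every 4-cell library. In in vivo embryos the ratio was 2.12 and 0.314 in hatched blastocysts, with the unnumbered library the high one, and 0.751 and 0.667 in blastocysts. By origin, 7 of 13 mitochondrial messages were lower in IVF blastocysts and 11 of 13 in IVF hatched blastocysts, beside 4.74% and 4.88% of all genes, and none was called on hatching of either origin. Libraries were enriched on oligo(dT), which can pick mitochondrial messages unevenly. Leaving out the overlapping messages ND4 and ND4L, the ratio was 3.23 to 3.60 in IVF blastocysts and 1.25 and 1.72 in in vivo blastocysts. In hatched blastocysts it was 3.86 to 8.08 after IVF, 3.18 in the unnumbered in vivo library and 0.594 in library 2. In vivo blastocysts held 38994 ± 5017 CPM of all 13 messages and 18730 ± 174 CPM without these 2. IVF blastocysts held 8093 ± 498 CPM without them.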

How the data were processed

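The authors deposited 1 gene table on Sscrofa11.1 with whole-number read counts, FPKM and TPM for 13 libraries; 2 of its value columns, an in vivo hatched FPKM column numbered 1 and an unnumbered TPM column, could not be tied to 1 library and were not used. The deposited counts are not normalised; the deposited FPKM and TPM values were scaled by gene length and depth by the authors. Per the labels' protocols, RNA was extracted with TRIzol and enriched on oligo(dT) beads, and NEBNext Ultra libraries were read in pairs on an Illumina HiSeq. Tools in the submitters' processing notes, without their roles, are RSEM, StringTie 1.3.1, HISAT2, Bowtie2 and fastp 0.18.0; the handling of strand and of reads shared between copies is not given in the sources used here. Gene positions come from RefSeq's table of the same build.

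Counts were tested with edgeR 4.0.16 (R 4.3.3; TMM, filterByExpr, quasi-likelihood, Benjamini-Hochberg over all genes tested, checked on simulated data). The 10 blastocyst and hatched libraries were fitted together (15528 genes, 62 members) and the 9 IVF libraries together (16312 genes, 64 members). The pseudogene and, in the first fit, NDUFA4L2 and COX7A1 did not pass the filter. A floor of 3 counts is 0.0637 to 0.0915 CPM in a library and leaves out all but counting error. No replicate pair agreed within sampling noise (the lowest chi-square was 72.5 per degree of freedom), so all were kept apart.

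Full statistics are given for up to 3 called members per complex and side with the smallest p, for the highest member per length and for tissue variants; others were chosen after their values were seen. Members and lists were chosen with earlier results of these data known. Alternatives were RLE factors, library size alone, DESeq2 1.42.0, no filter, all 13 libraries in 1 fit, the replicate number as a block, and each library left out. Values of 1 member are not reported here; it stays in the counts, sums and medians.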

Additional observations from a re-analysis of the deposited data

Results flagged for a closer look

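The hatching change of ATP5S differed between origins by an interaction contrast: 1.86 on the log2 scale (IVF minus in vivo), the only member of 62 past the threshold, with an adjusted p of 0.0144 by edgeR. It kept the call with each of the 10 libraries left out (1.67 to 2.07) and lost it with the replicate block and with all 13 libraries in 1 fit.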

How the results depend on the processing

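No named member changed sign while called, but the balance of calls on hatching in vivo did: 0 higher and 5 lower, against 4 higher and 1 lower without in vivo hatched library 2, and 1 higher (ATP5B) with DESeq2, library size alone or no filter. Members called by origin in blastocysts (5) numbered 8 with DESeq2, 9 with no filter, 0 with all 13 libraries in 1 fit, 2 with the replicate block and 0 to 6 with a library left out. By origin in hatched blastocysts (5) they numbered 8 with DESeq2, 0 with all 13 libraries, 3 with the replicate block and 0 to 13 with a library left out. On hatching in vivo (5) they numbered 12 with DESeq2, 11 with no filter, 0 with all 13 libraries, 1 with the replicate block and 1 to 10 with a library left out. The difference of hatching changes (1) gave 6 with DESeq2, 6 with no filter, 0 with all 13 libraries, 0 with the block and 1 to 6 with a library left out. Hatching after IVF stayed at 0 throughout, and comparisons with 4-cell embryos at 55 to 60. Same-numbered libraries did not deviate together (correlations of -0.13 to 0.03), so the block pairs nothing by design; it gave 57 and 58 members for blastocysts and hatched blastocysts against 4-cell embryos. Of the values of named members, 524 kept their side of the threshold and 107 did not. The causes were not tested. The median for hatched blastocysts against 4-cell embryos was 3.25 with library size alone, and summed 4-cell levels were 784 (RLE) and 811 CPM (library size) for complex I and 1262 and 1319.8 CPM for complex V. Members near the floor, such as COX7A1, have few counts behind them; other effects of depth were not tested.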
